A study of Rattus norvegicus with 9 samples.

Results

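The 10 growth factor and matricellular genes of the TGF-beta, BMP and CCN families were followed in RNA sequencing of rat knee cartilage. They were Tgfb1, Tgfb2, Tgfb3, Bmp2, Bmp4, Bmp6, Grem1, Ltbp1, Ccn1 and Ccn2, taken by name from a table of 32043 genes, and each name stood on 1 row. The rule uses names and no expression value, but the names were chosen with earlier results of these data known. The 9 libraries formed 3 groups of 3, all from male Sprague-Dawley rats bought at 8 weeks of age. In the control group the left knee capsule was opened and sutured, with no other treatment. In the model group knee osteoarthritis was induced by the modified Hulth method, in which the medial collateral and anterior cruciate ligaments are excised and the medial meniscus is removed, followed by daily forced activity. SYD-H rats were operated in the same way and then received the extract of Shengyu decoction (SYD), a herbal formula, by gavage for 4 weeks at the highest of the study's 3 doses, and tissue was taken 8 weeks after surgery. The titles call the treated libraries syd, without a dose, so the dose group rests on the paper. Their library names and column heads read CXTB, a code that no source used here explains and that is close to CXB, the abbreviation of the positive control drug, and the groups follow the titles. Nothing in the labels says whether a library came from 1 rat or from pooled rats, so p-values measure the spread between these libraries only.

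TGF-beta ligands are secreted as latent complexes, held in the extracellular matrix by latent TGF-beta binding proteins such as Ltbp1, and must be activated before they bind their receptors. BMP ligands signal through related receptors and are held back by secreted antagonists, among them gremlin, the product of Grem1. Ccn1 and Ccn2 encode matricellular proteins that bind integrins and are known as target genes of TGF-beta signaling and of YAP with TEAD transcription factors. In joint tissue these families are known for their parts in cartilage matrix upkeep, in hypertrophy of chondrocytes and in outgrowths of bone at the joint margin.

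The RefSeq promoters of Ccn1 and Ccn2, in the GRCr8 assembly, are shown because these genes varied together across the libraries and because the windows hold matches to the core TEAD motif GGAATG. Each window runs from 250 bases before the start to 50 after it, and capitals mark GGAATG or its reverse complement. The Ccn2 window lies at chr1:22624565-22624864 and the Ccn1 window at chr2:237225640-237225939, both on the minus strand.
Ccn2: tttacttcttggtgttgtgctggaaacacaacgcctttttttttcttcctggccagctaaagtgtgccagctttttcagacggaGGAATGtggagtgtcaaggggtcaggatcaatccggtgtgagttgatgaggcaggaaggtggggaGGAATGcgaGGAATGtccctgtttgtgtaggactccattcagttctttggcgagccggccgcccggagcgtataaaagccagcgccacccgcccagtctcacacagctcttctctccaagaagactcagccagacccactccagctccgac
Ccn1: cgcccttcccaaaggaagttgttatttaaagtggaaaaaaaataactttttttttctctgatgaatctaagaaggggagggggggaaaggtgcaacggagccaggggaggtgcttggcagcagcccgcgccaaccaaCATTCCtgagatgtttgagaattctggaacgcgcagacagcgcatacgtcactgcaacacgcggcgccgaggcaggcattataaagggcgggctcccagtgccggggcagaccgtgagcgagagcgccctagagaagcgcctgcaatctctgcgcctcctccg
Matches to GGAATG were found in 3 of the 9 members with a promoter entry, Ccn1, Ccn2 and Bmp4. On both strands, the Ccn2 window held 3 matches, at -166, -101 and -92 from the start. The Ccn1 window held 1 match, at -113, on the other strand, and the Bmp4 window held 2, both after the start. Among 33469 promoters of the same length, 14.2% held at least 1 match and 0.0956% held 3 or more. TATAAA was found at -31 in Ccn2 and at -34 in Ccn1 and in no other of the 9 genes, against 14.2% of all promoters. The SMAD-binding letters CAGAC occurred in 5 of those 9 promoters, Ccn1 and Ccn2 among them, and in 50.1% of all promoters. Of the other motifs searched on both strands, the AP-1 letters TGANTCA and the CArG box were in none of the 9 promoters, against 7.33% and 1.64% of all promoters. The letters TGACGTCA were in Ltbp1 only, against 1.83%, and the E-box CANNTG was in 3 of the 9, against 72.1%. A match is a stretch of letters and was not tested for binding.

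Whole reads recovered from the deposited values totalled 14914121 to 19510537 per library. Mitochondrial genes took 4.05% to 4.86% of the reads in the control libraries, 90.7%, 39.5% and 81.3% in model libraries 1, 2 and 3, and 23.7%, 34.7% and 72.7% in SYD-H libraries 1, 2 and 3. Reads from other genes were therefore fewest in model library 1 (1744769) and model library 3 (3611325). A value of 0 was given to 34.8% and 25.6% of the tested genes in those libraries, against 2.10% to 2.40% in the control libraries. The summed FPKM of 8 chondrocyte markers was 10119, 400 and 5297 in control libraries 1, 2 and 3, 98.0 to 732 in the model group and 71.5 to 981 in the SYD-H group. Control library 2 thus stood apart from its group in the genes that define cartilage. Osteoblast, erythroid, neutrophil and B cell markers were also present, so the material was not cartilage alone. The labels' description of RNA extraction speaks of retinas, but 5 photoreceptor markers summed to 3.50 FPKM at most and to 0 in every model library.

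All 10 genes passed the filter on low values (a mean FPKM of at least 0.5), and 8 had reads in every library. FPKM, fragments scaled by gene length and library size, allows levels to be set side by side between genes. The library size implied by the deposited values was not the recovered total of reads. It was 2.01 to 2.18 times that total in control libraries, but 0.193 and 0.343 times in model libraries 1 and 3. In model library 1 it was 3636667 beside 1744769 non-mitochondrial reads, and in control library 1 30015950 beside 14306782. The scaling thus followed the non-mitochondrial reads more closely than the total. Tgfb1 and Ccn2 had the highest mean levels in the control group (54.4 and 46.3 FPKM) and in the model group (56.0 and 47.1 FPKM). In the SYD-H group Ccn2 came first with a mean of 198 FPKM, then Ccn1 with 79.4 and Tgfb1 with 58.4. The lowest mean level was that of Tgfb2 in the control group, 1.59 FPKM, and of Bmp6 in the model group, 0.258 FPKM. In the control group the values of every pair of neighbours in this order overlapped. In the model group they were apart only between Ccn1 and Grem1 and between Tgfb2 and Ltbp1, and in the SYD-H group only between Tgfb1 and Tgfb3 and between Tgfb2 and Bmp4. The genes differed widely in steadiness. The SD of log2(FPKM + 1) over the 9 libraries was 0.22 for Ltbp1 and 0.29 for Tgfb1, and 1.71% and 4.99% of the tested genes had a smaller one. It was 1.54 for Ccn1 and 1.38 for Ccn2, above 96.4% and 94.1% of the tested genes. Within the control group alone, the spread of Ccn1 and Ccn2 exceeded that of 99.4% of the tested genes. Control library 2 was the lowest of its group in 8 of the 10 genes, and control library 1 the highest in 8.

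**Figure D1:**
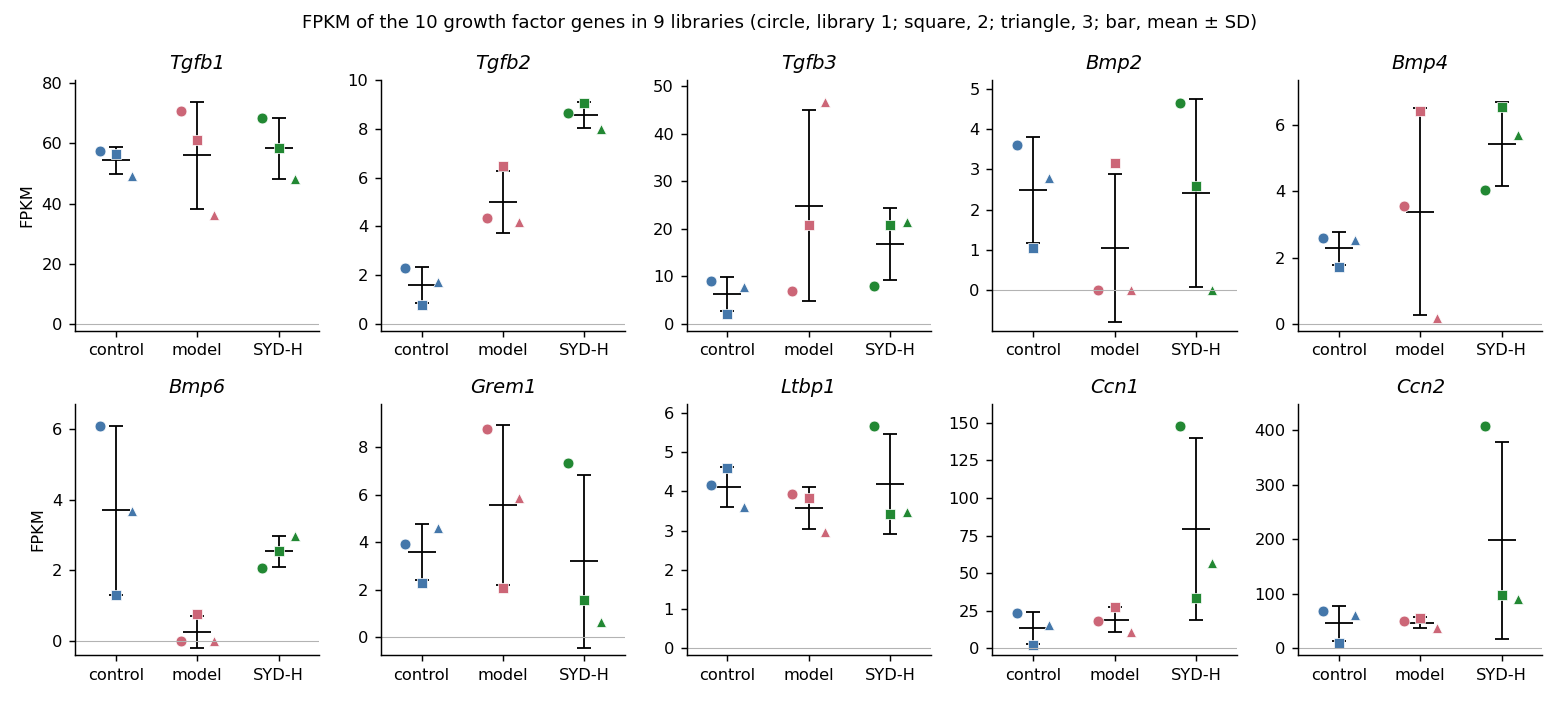
FPKM of each of the 10 genes (vertical axes) by group. Each marker is a library (circle, library 1; square, library 2; triangle, library 3) and the black bars give the mean and SD of 3 libraries. Tgfb2 lies at a separate level in each group, Bmp6 is at or near 0 in the model group, and SYD-H library 1 lies far above the others in Ccn1 and Ccn2.

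The design gave 3 comparisons. Model against control asks what the induction of osteoarthritis changed, SYD-H against model what the extract changed in operated joints, and SYD-H against control how far treated joints were from sham joints. They share libraries, so their values are not independent of each other. A gene was called when its unadjusted p in limma was under 0.05 and its absolute log2 fold change over 1, the study's own criteria. In model against control, 2 of the 10 genes were called, Tgfb2 higher and Bmp6 lower, against 14.7% of the 13898 tested genes (3.55% higher and 11.2% lower). The same 2 genes had values that did not overlap between the groups, as did 28.7% of the tested genes. In SYD-H against model, 3 of 10 were called, all higher (Bmp6, Ccn1 and Ccn2), against 4.15% of the tested genes (3.62% higher and 0.532% lower). Together with Tgfb2, 4 genes were higher without overlap, against 7.89% of the tested genes. In SYD-H against control, 2 of 10 were called, both higher (Tgfb2 and Ccn1), against 16.5% of the tested genes (7.25% higher and 9.22% lower). Here Tgfb2, Bmp4, Ccn1 and Ccn2 were higher without overlap, against 20.3% of the tested genes.

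With Benjamini-Hochberg adjustment over all tested genes, limma left 0 of the 10 genes under 0.05 in model against control, where 2.59% of the tested genes were under it, and 0 in SYD-H against model, where the share was 0% and the smallest adjusted p of any gene was 0.723. At an unadjusted p under 0.05 the counts were 2 and 3 (19.2% and 5.26% of the tested genes), and voom on the recovered reads also gave 0 and 0 after adjustment. In SYD-H against control, Tgfb2 and Bmp4 were under 0.05 after adjustment in limma, as were 17.3% of the tested genes. The median log2 fold change of the 10 genes was 0.23, 0.73 and 0.53 in the 3 comparisons in the order given, and that of all tested genes was -0.23, 0.22 and 0. The direction of the median over all genes turned with the scaling in the comparisons with the model group, to 0.04 and -0.02 after quantile normalization.

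**Figure D2:**
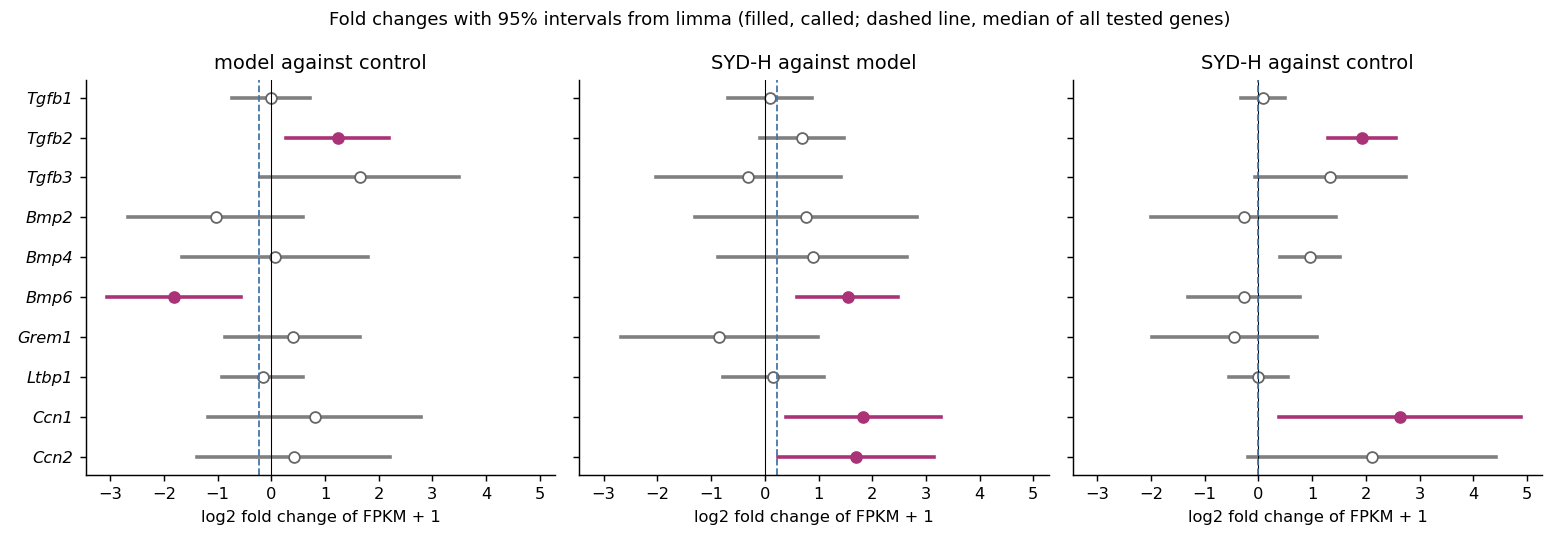
Log2 fold change of FPKM + 1 (horizontal axes) for each of the 10 genes in the 3 comparisons, with the confidence interval from limma as a line. Filled points are called genes and the dashed line is the median of all tested genes. In SYD-H against control, intervals are widest for Ccn1 and Ccn2 and narrowest for Tgfb1 and Ltbp1.

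Of the TGF-beta ligands, Tgfb2 (ENSRNOG00000002418, chromosome 13, 98160087 to 98261405, minus strand, build not given in the sources used here) was called higher in model and in SYD-H than in control, and not in SYD-H against model. It encodes the isoform known for its part in heart and skeletal development. Controls 1, 2 and 3 had 2.28, 0.787 and 1.71 FPKM. The model values were 4.36, 6.48 and 4.19 FPKM, and those of SYD-H 8.66, 9.06 and 7.99 FPKM. No library of one group overlapped with another group, and the SYD-H libraries were the tightest, with a mean of 8.57 ± 0.538 FPKM (SD, n = 3). The mean of the model group was 3.15 times that of the control group, with a log2 fold change of 1.24 ± 0.40 (SE) and an adjusted p of 0.166 in limma. SYD-H lay 1.71 times above the model group, a log2 fold change of 0.69 ± 0.32 that was not called (adjusted p of 0.723 in limma). Against control the SYD-H mean was 5.38 times as high, with a log2 fold change of 1.93 ± 0.26 and an adjusted p of 0.0115 in limma. This last call held in all alternatives tried, although its adjusted p in limma rose to 0.0629 without control library 3 and to 0.0914 without control library 2 and SYD-H library 1 together. That of model against control was lost without control library 2 (log2 fold change of 0.99) or without control library 3 (1.29) and after rescaling to the non-mitochondrial genes (1.41), and its size was 2.05 with voom on the recovered reads.

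Tgfb1 (ENSRNOG00000020652, chromosome 1, 81196532 to 81212847, plus strand), the isoform most abundant in most tissues, was not called in any comparison. It stood at 57.5, 56.3 and 49.3 FPKM for control, 70.6, 61.2 and 36.3 for model and 68.5, 58.5 and 48.1 for SYD-H libraries. The groups overlapped throughout, and the highest of the 9 values was 1.95 times the lowest. The interval of the log2 fold change in limma was -0.73 to 0.72 in model against control, -0.69 to 0.88 in SYD-H against model and -0.33 to 0.50 in SYD-H against control. Tgfb3 (ENSRNOG00000009867, chromosome 6), an isoform also made by chondrocytes, varied most of the 3 ligands. Control libraries gave 8.92, 2.12 and 7.81 FPKM, model libraries 7.02, 20.8 and 46.6, and SYD-H libraries 8.05, 20.8 and 21.4. In each operated group 1 library stayed within the control range. Its log2 fold change was 1.64 ± 0.76 in model against control and 1.34 ± 0.57 in SYD-H against control (adjusted p of 0.313 and 0.16 in limma), and neither was called. A call appeared in the first comparison without model library 1 (2.31), and in the second without control library 1 (1.65) or without SYD-H library 1 (1.77). The fold change fell in the first to 1.03 without model library 3 and to 1.12 without control library 2. In the second its lowest was 0.81 with libraries left out. With voom on the recovered reads both were called (2.12 and 1.51), as was the first with all 9 libraries in one fit (1.64) and the second after quantile normalization (1.38).

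The makeup of the 3 isoforms was also taken within each library, a measure that no linear scaling between libraries can alter. Tgfb2 formed 3.32%, 1.33% and 2.90% of the summed isoform FPKM in the control libraries. Its share was 5.32%, 7.32% and 4.82% under the model condition and 10.2%, 10.2% and 10.3% under SYD-H. The groups did not overlap in any comparison, and the exact two-sided permutation p was 0.1 in each, the smallest that 3 against 3 libraries can give. The mean share was thus 2.52% ± 1.05 in control, 5.82% ± 1.32 in model and 10.2% ± 0.0702 in SYD-H (SD, n = 3). Tgfb1 took 87.5% ± 6.54 in the control group, 65.6% ± 22.5 in the model group and 69.6% ± 9.61 in the SYD-H group (SD, n = 3). Tgfb3 took 9.95% ± 5.51, 28.6% ± 22.9 and 20.2% ± 9.54 in the same order, with overlap in every comparison. The sum of the isoforms was 58.8 to 68.7 FPKM in control, 82.0 to 88.5 in model and 77.6 to 88.4 in SYD-H, so both operated groups lay above control (exact permutation p of 0.1 for each, two-sided) and overlapped with each other.

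**Figure D3:**
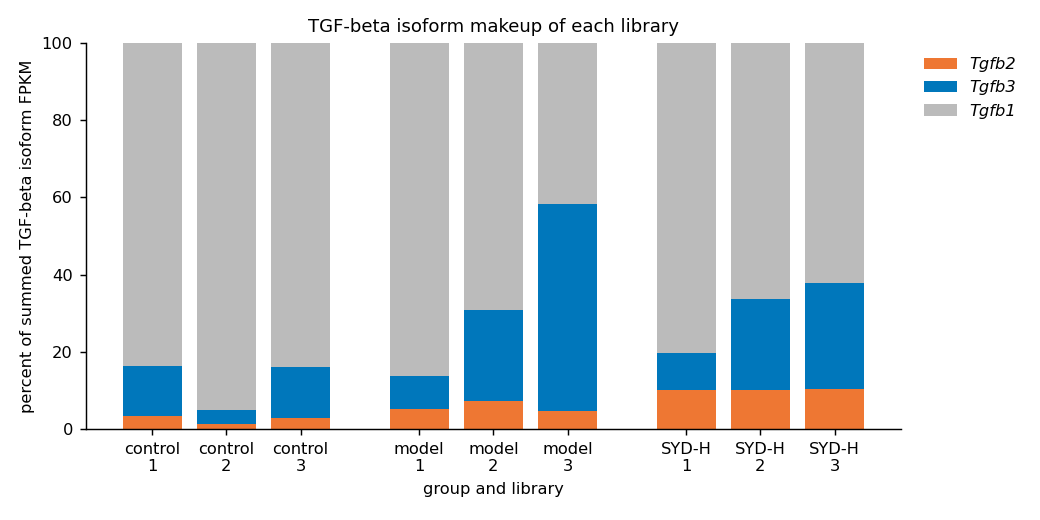
Share of Tgfb1, Tgfb2 and Tgfb3 in their summed FPKM (vertical axis, percent) in each of the 9 libraries (horizontal axis). Tgfb2 takes at most 3.32% in the control libraries and at least 10.2% in the SYD-H libraries, and Tgfb3 takes 53.6% in model library 3.

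Among the BMP ligands, Bmp6 (ENSRNOG00000013717, chromosome 17, 26318569 to 26470365, minus strand) was low in the model group only. It encodes a ligand known for inducing hepcidin in the liver and bone in the skeleton. The control libraries had 6.10, 1.31 and 3.70 FPKM. Model libraries 1, 2 and 3 had 0, 0.774 and 0 FPKM, and the SYD-H libraries 2.08, 2.56 and 2.98 FPKM. The model values lay under all others, while those of SYD-H lay within the control range. Model library 2 held 74 reads of the gene. In model libraries 1 and 3 a count of 0 allows up to 0.228 and 0.125 FPKM (3 reads, counting error only), so the gene was below the lowest control value at those depths too. The log2 fold change was -1.81 ± 0.51 in model against control (adjusted p of 0.128 in limma) and 1.54 ± 0.39 in SYD-H against model (adjusted p of 0.723 in limma). Both calls held in every alternative, but their size moved with the pseudocount and the scaling. It was -3.97 and 3.67 at a pseudocount of 0.1, -3.41 and 3.09 after rescaling to the non-mitochondrial genes, -1.36 and 1.03 after quantile normalization and -5.38 and 4.79 with voom on the recovered reads. SYD-H against control gave -0.27 ± 0.42, with an interval of -1.32 to 0.77 and an adjusted p of 0.679 in limma.

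Bmp4 (ENSRNOG00000009694, chromosome 15, minus strand), a ligand active in limb and skeletal patterning, was higher in SYD-H than in control. Control libraries gave 2.61, 1.71 and 2.55 FPKM, model libraries 3.55, 6.44 and 0.188, and SYD-H libraries 4.05, 6.54 and 5.71. The model group spanned both of the others, and its lowest value rested on 3 reads. The SYD-H mean was 2.38 times the control mean, with a log2 fold change of 0.96 ± 0.23 and an adjusted p of 0.0409 in limma, which is under 0.05 but short of the fold needed for a call. That adjusted p rose to between 0.0581 and 0.131 without any 1 of control libraries 1, 2 and 3 and SYD-H libraries 2 and 3, and was 0.482 with all 9 libraries in one limma fit. The fold itself ran from 0.83 to 1.13 as single libraries were left out, and passed the limit for a call without control library 1 or 3 or SYD-H library 1. Bmp4 was also called at a pseudocount of 0.1 (1.21), after rescaling (1.16), after quantile normalization (1.09) and with voom (1.24). Bmp2 (ENSRNOG00000071010, chromosome 3, plus strand), which drives bone formation and chondrocyte hypertrophy, gave 3.62, 1.06 and 2.79 FPKM for control. The values were 0, 3.17 and 0 for model and 4.66, 2.59 and 0 for SYD-H. The 3 values of 0 fell in the 3 libraries with the fewest non-mitochondrial reads, where 3 reads would give 0.658, 0.360 and 0.208 FPKM. Its log2 fold change in model against control was -1.04 ± 0.67 (adjusted p of 0.46 in limma) and was called only without model library 2 (-1.72, adjusted p of 0.0497 in limma). The 3 BMP ligands together gave 4.09 to 12.3 FPKM in control, 0.188 to 10.4 in model and 8.69 to 11.7 in SYD-H, with overlap in every comparison.

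Grem1 (ENSRNOG00000026053, chromosome 3), which encodes the BMP antagonist gremlin, was not called in any comparison. Its level was 2.28 to 4.59 FPKM in control, 2.07 to 8.78 in model, and 7.36, 1.57 and 0.643 in SYD-H libraries 1, 2 and 3, a spread of 11.4 times within that group. A call lower than control appeared when SYD-H library 1 was left out (log2 fold change of -1.13, against -0.45 with it). Set against the summed BMP ligands in the same library, Grem1 stood at 0.318 to 0.559 in control, at 2.47, 0.199 and 31.1 in the model libraries and at 0.0740 to 0.682 in SYD-H, and the value of 31.1 divides by 0.188 FPKM, which is 3 reads of Bmp4 with Bmp2 and Bmp6 at 0, so it is not a firm level. Ltbp1 (ENSRNOG00000033090, chromosome 6, minus strand), which stores latent TGF-beta in the matrix, was the steadiest of the 10 genes. It ran from 3.59 to 4.59 FPKM in control, 2.96 to 3.92 in model and 3.41 to 5.66 in SYD-H. The ratio of Tgfb1 to Ltbp1 was 13.3 ± 0.884, 15.4 ± 2.93 and 14.4 ± 2.56 in the same order (SD, n = 3), with overlap in every comparison.

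Ccn2 (ENSRNOG00000015036, chromosome 1, 20802199 to 20805734, minus strand), formerly named connective tissue growth factor, was highest in the SYD-H group. Control libraries gave 68.7, 9.51 and 60.5 FPKM, model libraries 49.2, 55.3 and 36.8, and SYD-H libraries 407, 97.7 and 89.7. Every SYD-H value lay above every other value. Ccn1 (ENSRNOG00000014350, chromosome 2, 234562408 to 234565484, minus strand), formerly Cyr61, gave 23.4, 2.08 and 15.5 FPKM for control, 18.3, 27.5 and 11.0 for model and 148, 33.5 and 57.0 for SYD-H libraries. Its SYD-H values also lay above all others, and SYD-H library 1 was the highest and control library 2 the lowest of the 9 in both genes. In SYD-H against model the means differed 4.19 times for Ccn1 and 4.21 times for Ccn2, and 2.39 and 1.99 times without SYD-H library 1. The log2 fold changes were 1.83 ± 0.60 and 1.70 ± 0.61, with an adjusted p of 0.723 for both in limma. These calls were lost without model library 1 (1.85 and 1.74) or model library 3 (1.51 and 1.53), and that of Ccn2 also without model library 2 (1.82) and without SYD-H library 1, where it fell just under the fold needed (0.996). The Ccn1 call held without SYD-H library 1, at 1.25. With all 9 libraries in one limma fit the Ccn2 call was lost too, at an unchanged fold.

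Against control, Ccn1 was called with a log2 fold change of 2.64 ± 0.92 (adjusted p of 0.103 in limma) and Ccn2 was not, at 2.11 ± 0.94 (adjusted p of 0.172 in limma), although it was called with voom (2.14) and with all 9 libraries in one limma fit (2.11). The Ccn1 call was lost without control library 2 (1.73), SYD-H library 1 (2.06) or SYD-H library 3 (2.74). With both control library 2 and SYD-H library 1 left out, Ccn1 stood at 1.16, again called, and Ccn2 at 0.53 with an unadjusted p of 0.0307 in limma, an alternative chosen after the values were seen. In model against control neither was called, and without control library 2 the direction turned, from 0.81 to -0.10 for Ccn1 and from 0.41 to -0.47 for Ccn2. The ratio of Ccn2 to Ccn1 stayed between 1.57 and 4.57 over the 9 libraries while Ccn1 itself ranged 71.0 times from lowest to highest. That ratio was 3.81 ± 0.822 in control, 2.68 ± 0.665 in model and 2.42 ± 0.735 in SYD-H (SD, n = 3), lower without overlap in SYD-H than in control (exact two-sided permutation p of 0.1). The margin was narrow, with 2.921 in SYD-H library 2 and 2.935 in control library 1.

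**Figure D4:**
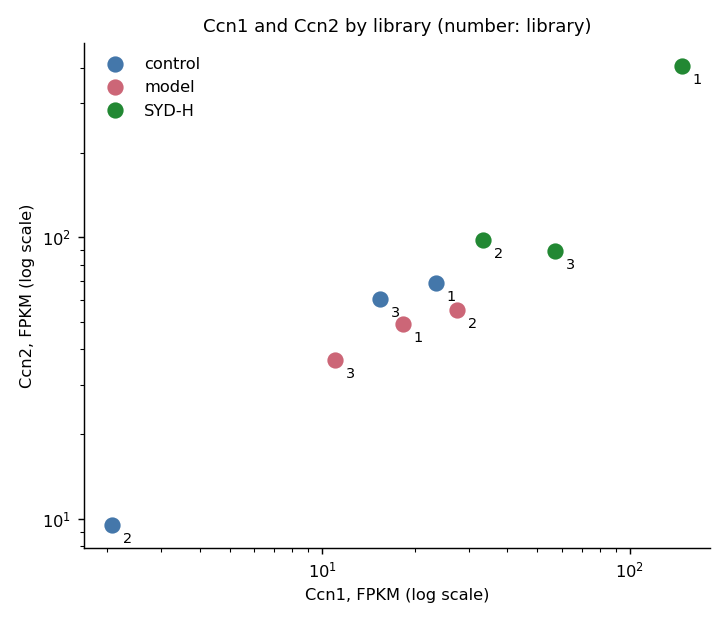
Ccn2 against Ccn1 in FPKM, both axes on a log scale, with 1 point per library, coloured by group and numbered by library. The points lie along a band from control library 2 (2.08 and 9.51 FPKM) to SYD-H library 1 (148 and 407 FPKM).

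The genes most like each called member were those with the smallest root mean square difference in log2(FPKM + 1) over the 9 libraries, after centring each gene on its mean. Of all tested genes, Ccn1 and Ccn2 were each the nearest to the other, at 0.37. Next for both came Snai1, a transcriptional repressor known for epithelial-mesenchymal transition, at 0.59 from Ccn1 and 0.49 from Ccn2. Wif1, a secreted Wnt inhibitor, followed for Ccn1 at 0.64, and Sdc4, a cell surface proteoglycan, for Ccn2 at 0.63. Nearest to Tgfb2 were Bag3, a cochaperone, at 0.18, then Pvr, a cell adhesion molecule, and Dab2, an endocytic adaptor, both at 0.26. Bag3 followed Tgfb2 from 1.36 to 4.01 FPKM in control, through 5.08 to 8.57 in model, to 8.96 to 11.4 in SYD-H. Nearest to Bmp6 were Srebf1, a regulator of lipid synthesis, Cpxm1, a carboxypeptidase family member, and Ptprk, a receptor phosphatase, between 0.30 and 0.31. Cpxm1 and Ptprk were at 0 in the same model libraries as Bmp6, and Srebf1 at 0 and 0.305 FPKM there. Likeness was sought over these same libraries, and 34.8% and 25.6% of all tested genes were at 0 in model libraries 1 and 3.

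The rest of the pathway was read from 8 lists of 120 genes, of which 94 passed the filter. In model against control, 9 of the 94 were called higher and 5 lower, in SYD-H against model 6 higher and 0 lower, and in SYD-H against control 27 higher and 0 lower. The shares of all tested genes called higher were 3.55%, 3.62% and 7.25%, and of those called lower 11.2%, 0.532% and 9.22%. Leaving out each library in turn kept the call of 7 of the 14 genes in model against control (Gdf11, Nrros, Thbs1, Acvrl1, Nbl1, Ccn5 and Tgfb1i1), 2 of 6 in SYD-H against model (Nog and Fst) and 17 of 27 in SYD-H against control. Called genes of these lists were named after their values were seen, except where they are among the 3 most abundant of their list. Of 10 other ligands, Gdf11, a relative of myostatin, was higher in the model group (1.51 ± 0.342 and 5.77 ± 0.873 FPKM, SD, n = 3) and Bmp8a lower. Gdf10, the most abundant of these ligands, had 6.25 ± 5.72, 1.49 ± 2.08 and 3.31 ± 1.93 FPKM in control, model and SYD-H (SD, n = 3) and was not called. Bmp5 and the activin subunits Inhba and Inhbb were called higher in SYD-H than in control. Inhbb had 0.234 ± 0.126 FPKM in control, 1.00 ± 0.837 in model and 3.27 ± 0.836 in SYD-H (SD, n = 3). Of 11 genes of latency and activation, Nrros, which anchors latent TGF-beta on macrophages, and Thbs1, an activator of latent TGF-beta, were called lower in the model group. Nrros went from 16.1 ± 1.50 FPKM in control to 2.41 ± 3.02 in model and 10.4 ± 2.42 in SYD-H (SD, n = 3), and was called higher in SYD-H than in model together with Ltbp2. Ltbp2, Ltbp3, Itgav and Bmp1 were called higher in SYD-H than in control. Bmp1, a protease that frees TGF-beta from its matrix store, had 22.4 ± 8.12, 34.7 ± 25.6 and 68.5 ± 15.8 FPKM in control, model and SYD-H (SD, n = 3).

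Of 12 receptors, Acvrl1, a receptor of endothelial cells, was called higher in the model group and in SYD-H than in control, and Tgfbr1, the signaling receptor for TGF-beta, higher in SYD-H than in model. Tgfbr1 had 6.67 ± 1.41, 5.53 ± 6.04 and 13.9 ± 1.11 FPKM in control, model and SYD-H (SD, n = 3), and Tgfbr2, the most abundant receptor, was not called. The coreceptor endoglin (Eng), second in abundance, was not called either, with 10.7 ± 2.51, 18.5 ± 17.7 and 20.5 ± 3.58 FPKM (SD, n = 3). In SYD-H against control, however, Eng and Tgfbr1 were higher without overlap, with adjusted p of 0.0446 and 0.0219 in limma. Their log2 fold changes of 0.89 and 0.97 there fell short of a call. None of the 8 SMADs, the transducers inside the cell, was called in limma in any comparison. The most abundant, Smad4, Smad6 and Smad1, had mean values of 9.63, 4.53 and 5.80 FPKM in control and 12.6, 9.82 and 7.73 in SYD-H. Of 20 antagonists and inhibitors, Nog, which encodes noggin, and Chrdl2 were called lower in the model group, and Nbl1 and Pmepa1 higher. Nog had 2.86 ± 2.18 FPKM in control, 0.186 ± 0.322 in model and 3.25 ± 1.09 in SYD-H (SD, n = 3), and its call in SYD-H against model was shared by Fst, the activin antagonist. Nbl1, a relative of gremlin, had 8.59 ± 4.08, 90.0 ± 65.6 and 61.8 ± 20.2 FPKM in the same order (SD, n = 3). Biglycan (Bgn), a matrix proteoglycan and the most abundant gene of this list, had 232 ± 144, 508 ± 400 and 381 ± 37.5 FPKM (SD, n = 3) and was not called in any comparison. Fibromodulin (Fmod), a related proteoglycan, had 136 ± 128, 39.9 ± 10.4 and 54.7 ± 28.1 FPKM (SD, n = 3) and was not called either. Called higher in SYD-H than in control were Fst, Fstl1, Nbl1, Pmepa1 and decorin (Dcn), a proteoglycan that binds TGF-beta. Fst rose from 0.842 ± 0.196 FPKM in control to 13.3 ± 3.95 in SYD-H (SD, n = 3), a log2 fold change of 2.92 ± 0.25 with an adjusted p of 0.00636 in limma.

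Of the 3 other CCN genes tested, Ccn5 was called higher in both operated groups, with 1.88 ± 0.906 FPKM in control, 32.4 ± 32.9 in model and 26.8 ± 11.6 in SYD-H (SD, n = 3). Its log2 fold change against control was 3.11 ± 0.72 in model and 3.21 ± 0.41 in SYD-H (adjusted p of 0.0833 and 0.0105 in limma). Ccn3, with 6.83 ± 6.08, 19.0 ± 16.5 and 26.9 ± 25.7 FPKM in control, model and SYD-H (SD, n = 3), and Ccn4 were not called. Of 14 SMAD target genes, 8 were called higher in SYD-H than in control, among them the 3 most abundant, Id3, Timp1 and Id1. Id1, a target of BMP signaling that restrains differentiation, had 19.4 ± 6.74, 54.0 ± 28.5 and 71.3 ± 11.5 FPKM in control, model and SYD-H (SD, n = 3). In SYD-H against control its log2 fold change was 1.87 ± 0.27 (adjusted p of 0.0137 in limma), and that of the tissue inhibitor Timp1 2.14 ± 0.47 (0.0341). Only Id1 and Tgfbi of this list were called in model against control, both higher, and none in SYD-H against model in limma, where 0 of the 14 had an adjusted p under 0.05. Of 16 YAP-TEAD target genes beside Ccn1 and Ccn2, Tgfb1i1 and Dlc1 were called higher in the model group, Ajuba in SYD-H against model, and Ajuba, Lats2, Tgfb1i1, Dlc1 and Foxf2 in SYD-H against control. The most abundant of this list, Axl and Amotl2, were not called, with mean values of 9.41 and 5.63 FPKM in control, 12.8 and 8.62 in model and 9.97 and 9.05 in SYD-H. The median log2 fold change of that list was 0.26, 0.41 and 0.58 in the 3 comparisons, and that of the SMAD targets 0.91, 0.61 and 1.38.

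**Figure D5:**
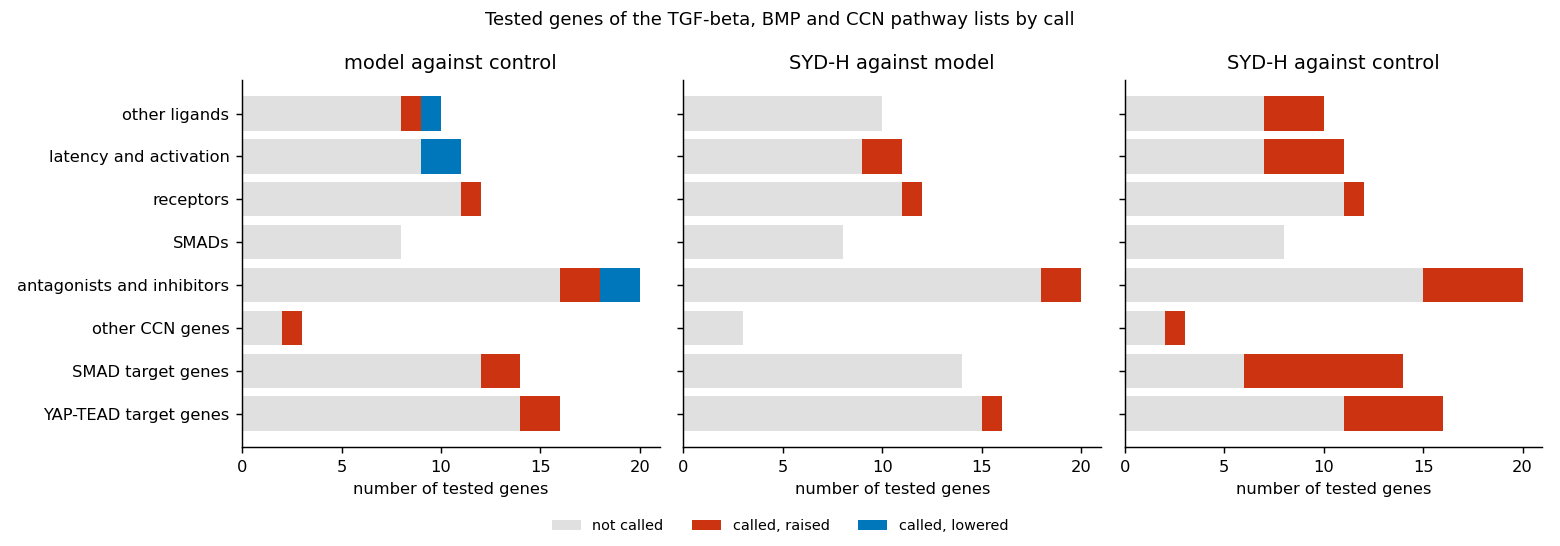
Number of tested genes (horizontal axes) of the 8 pathway lists that were not called, called higher or called lower in each comparison. SMADs have no called gene in any panel, and SYD-H against control has 27 genes called higher and none lower.

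Markers of some other cells, but not of all, moved with these results. Synovial fibroblast sums of SYD-H overlapped with control (46.9 to 114 against 35.4 to 70.0 FPKM), as did macrophage sums (87.8 to 145 against 81.4 to 109). Skeletal muscle sums (18.3 to 711 against 7.60 to 246) and adipocyte sums (16.3 to 127 against 8.27 to 23.3) overlapped too. Between SYD-H and control, 0 of 8 chondrocyte and 0 of 5 skeletal muscle markers lay apart. The summed FPKM of 6 osteoblast markers was 1040 to 1539 in control, 553 to 2525 in model and 2615 to 3883 in SYD-H. Endothelial markers summed to 23.0 to 32.7 FPKM in control, 19.4, 187 and 38.7 in model libraries 1, 2 and 3, and 77.6 to 103 in SYD-H. Vascular mural markers summed to 12.6 to 49.3 FPKM in control, 15.7, 269 and 72.7 in the model libraries and 72.1 to 318 in SYD-H. In all 3 sums SYD-H lay above control without overlap, as did Tgfb2, Bmp4, Ccn1 and Ccn2. Gene by gene this held for 2 of 6 osteoblast markers (Bglap and Sp7), 4 of 5 endothelial markers (all but Kdr) and 2 of 4 mural markers (Acta2 and Myh11), and the others overlapped. Of all tested genes, 20.3% were higher without overlap in SYD-H than in control. Bglap, which encodes osteocalcin, made up 69.3% of the osteoblast sum in control and 72.0% in SYD-H. B cell markers went the other way, from 226 to 293 FPKM in control to 4.56 to 44.2 in model and 6.84 to 39.3 in SYD-H, and 4 of the 5 lay below control in SYD-H without overlap. Platelet and megakaryocyte markers summed to 101 to 319 FPKM in control, 144, 6.26 and 110 in the model libraries and 15.1 to 88.2 in SYD-H, so SYD-H lay below control without overlap here too, as did 3 of the 5 genes. The erythroid and neutrophil sums of SYD-H overlapped with control, but 3 of 5 erythroid and 3 of 6 neutrophil markers were lower without overlap. The share of all tested genes lower without overlap is not given here, so these lower counts stand without a background. Model library 2 stood apart from its group in these lists. Its erythroid sum was 52.6 FPKM against 6451 and 7546 in model libraries 1 and 3, and its neutrophil sum 65.9 against 7564 and 1886. The same library was the highest of the model group in 6 of the 10 genes (Tgfb2, Bmp2, Bmp4, Bmp6, Ccn1 and Ccn2), held the only Bmp2 and Bmp6 reads of that group, and was the library without which Bmp2 was called lower than in control. Without it the log2 fold change of Bmp4 in model against control, not called, went from 0.07 to -0.49. The part of these markers in the results was not tested, and in these bulk samples a change in the share of a cell type and a change in its RNA per cell cannot be told apart.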

How the data were processed

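RNA sequencing of 9 libraries was read from 1 table of genes, in which the authors deposited FPKM with gene names, positions and lengths. The submitters' processing notes name HISAT2 2.0.5 and the human build hg38, although the table is of rat genes. The build of its positions, the annotation and the counting tool are not given in the sources used here. The number of columns of per-sample values left out was 0. FPKM multiplied by gene length gave whole multiples of 1 step per library for 100% of values (tolerance 0.1 read), from which reads and depth were recovered. A count of 0 was set against a floor of 3 reads, for counting error only.

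The test was limma 3.58.1 (R 4.3.3) on log2(FPKM + 1), two-sided (lmFit, then eBayes with trend), on the 6 libraries of each comparison. Tested were 13898 genes whose mean FPKM reached 0.5, with Benjamini-Hochberg adjustment over them. Fold changes on this scale understate the change of low genes. Single ratios and shares were compared with exact permutation tests. The fit was tested on simulated data with normal noise of the spread of the control libraries. These data lacked the depth differences and values of 0 of the model libraries, so the test does not cover those. Named genes were the 10 members, the 3 most abundant of each pathway list, called list genes where a list had 5 or fewer, and the 3 genes most like each called member. The members, lists and tests were chosen with earlier results of these data known. Groups came from the labels. Alternatives were a pseudocount of 0.1, no filter, a minimum mean FPKM of 1, rescaling to non-mitochondrial genes, quantile normalization, all 9 libraries in one fit, a replicate block, voom on recovered reads and leaving out each library. Python 3.11.15 with pandas 2.3.3, scipy 1.17.1 and matplotlib 3.10.9 was used for summaries and figures. Promoters came from RefSeq (GRCr8), where 9 of the 10 members matched by symbol; Bmp2 had no entry.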

Additional observations from a re-analysis of the deposited data

How the results depend on the processing

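Of the called members, Bmp6 in both comparisons with the model group and Tgfb2 in SYD-H against control kept their calls under all alternatives, the latter with an adjusted p of 0.0582 in limma with a replicate block. The count of members called in model against control fell to 1 (Bmp6) after rescaling to the non-mitochondrial genes and with a replicate block (where Tgfb2 stood at 1.24, not called), rose to 3 (with Tgfb3) with all 9 libraries in one fit and with voom on the recovered reads, and ran from 1 to 3 when single libraries were left out. In SYD-H against model it ran from 1 to 3 when single libraries were left out. In SYD-H against control it was 3 with all 9 libraries in one fit (with Ccn2), 4 with quantile normalization, 5 with voom on the recovered reads, 4 without control library 2 and SYD-H library 1 together, and 1 to 4 with single libraries left out. Members with an adjusted p under 0.05 in SYD-H against control numbered 1 with no filter, with rescaling and with all 9 libraries in one fit. They numbered 0 with a replicate block and 0 without control library 2 and SYD-H library 1 together, and 0 to 2 with single libraries left out. In model against control they numbered 0 to 1 with single libraries left out. The replicate numbers did not pair the samples, since deviations of same-numbered libraries correlated between -0.27 and 0.19, and the replicate block changed no call of a member beyond these counts and Ccn2 in SYD-H against control (log2 fold change of 2.11, called).

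Directions turned only in comparisons where the member was not called. In model against control Bmp4 was -0.30 at a pseudocount of 0.1 and -0.36 after rescaling, Grem1 was -0.39 with voom, and Ltbp1 0.015 after quantile normalization. Ltbp1 was -0.011 in SYD-H against model and 0.0041 in SYD-H against control after quantile normalization, and 0.025 with voom in the latter. Tgfb1 was -0.0049 in SYD-H against control without control library 2 and SYD-H library 1 together. With single libraries left out, in model against control, Tgfb1 ran from -0.20 to 0.27, Bmp4 from -0.49 to 0.84, Ccn1 from -0.10 to 1.40 and Ccn2 from -0.47 to 0.90. In SYD-H against model, Tgfb1 ran from -0.18 to 0.29, Tgfb3 from -0.97 to 0.31 and Ltbp1 from -0.034 to 0.26. In SYD-H against control, Tgfb1 ran from -0.031 to 0.22, Bmp2 from -0.80 to 0.45, Bmp6 from -0.71 to 0.095, Grem1 from -1.13 to 0.048 and Ltbp1 from -0.20 to 0.10. The causes were not tested. Over all tested genes, the median change on the log2 scale in model against control was -0.23 as deposited, -0.64 after rescaling and 0.04 after quantile normalization, and in SYD-H against model 0.22, 0.57 and -0.02. Depth limits genes of low level in model libraries 1 and 3, where 3 reads of Bmp2 equal 0.658 and 0.360 FPKM.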
